A study of Mus musculus with 6 samples.

Results

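The genes examined here are those of lipoprotein lipase and of the uptake of the fatty acids that it releases. They are the lipase Lpl, its endothelial anchor Gpihbp1, its maturation factor Lmf1, its inhibitor Angptl4, the lipoprotein receptor Vldlr, the fatty acid transporter Cd36 and the fatty acid-binding proteins Fabp4 and Fabp5. They were found by their symbols in the count table, which held all 8 of them among 41388 genes. The 8 genes were chosen with their KO and WT values known, so their levels and fold changes are given as a description with no test.

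Lung RNA was sequenced from adult mice of 2 genotypes, all collected at Zeitgeber time 7 (ZT7, 7 h after lights on under a cycle of equal light and dark). KO mice (Zpbp2-/-) lack the first exons and upstream sequence of Zpbp2, a gene of the zona pellucida binding protein family, in every cell. The allele was made on a 129S7 background and then moved to the C57BL/6J background, and WT mice were C57BL/6J animals from the same colony. Neither genotype received a treatment. Each genotype had 3 libraries, which the study's methods describe as separate mice (WT1 to WT3 and KO1 to KO3).

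Lipoprotein lipase is the enzyme that cleaves the triglycerides of chylomicrons and very low density lipoproteins. It is made by parenchymal cells, above all adipocytes and heart and skeletal muscle cells, and in the lung also by macrophages and interstitial cells. GPIHBP1 then carries it across the capillary endothelium to the lumen. The released fatty acids enter cells in part through CD36 and are bound in the cytosol by fatty acid-binding proteins. Several of these genes are known targets of the PPAR nuclear receptors.

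Total counts ranged from 59134950 to 71354388 per library. Zpbp2, the targeted gene, had 20, 15 and 7 counts in WT1 to WT3 and 1, 0 and 0 counts in KO1 to KO3. KO2 and KO3 differed by little more than counting noise, so their counts were summed and they were treated as 1 sample, with n = 3 for WT and n = 2 for KO in each mean ± SD. WT3 and KO1 stood apart from the other libraries by transcripts of squamous epithelium. The 15 marker genes of squamous epithelium summed to 4974 and 9496 CPM (the reads of a gene relative to all reads, after scaling of the libraries) in WT3 and KO1 and to 28.6 to 34.9 CPM in the others. In KO2 and KO3, which also held transcripts of intestine and liver (given with the lipoprotein genes), the erythroid markers reached 19003 and 19739 CPM, against at most 5523 CPM elsewhere. Fold changes of KO over WT became lower with the exon length of a gene (Spearman's rho = -0.33 over 18524 genes, and genes are no independent replicates).

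Promoter sequences are shown for Cd36 and Vldlr, which were lower in every KO library, and for Lmf1, which was not. RefSeq entries on GRCm38.p6 were matched for 3 of the 8 genes, Cd36, Lmf1 and Vldlr. Each window runs from 250 bases before to 50 bases after an annotated start, 5′ to 3′ on the strand of the gene. The Cd36 window is chr5:17835847-17836146 on the minus strand. The Lmf1 window is chr17:25578924-25579223 and the Vldlr window chr19:27216770-27217069, both on the plus strand. The Cd36 and Vldlr windows shown lie inside the annotated spans of their genes, downstream of the outermost 5′ end. Capitals mark GGGCGG (GC box) and AGGTCA (the core element of many nuclear receptors), or their reverse complements, which were searched together with CACGTG (E-box) and TATAAA (core promoter element).
Cd36: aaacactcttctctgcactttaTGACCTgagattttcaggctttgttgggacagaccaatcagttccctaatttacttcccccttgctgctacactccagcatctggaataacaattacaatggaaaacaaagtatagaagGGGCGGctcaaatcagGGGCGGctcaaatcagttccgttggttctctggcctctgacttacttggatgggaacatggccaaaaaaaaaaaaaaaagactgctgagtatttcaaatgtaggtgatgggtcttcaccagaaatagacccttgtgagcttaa
Lmf1: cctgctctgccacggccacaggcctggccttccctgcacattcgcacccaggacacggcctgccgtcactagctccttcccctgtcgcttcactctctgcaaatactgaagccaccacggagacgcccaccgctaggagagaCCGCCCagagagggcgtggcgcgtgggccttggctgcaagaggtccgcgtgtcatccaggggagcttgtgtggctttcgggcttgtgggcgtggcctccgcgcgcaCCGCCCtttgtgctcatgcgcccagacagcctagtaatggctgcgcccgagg
Vldlr: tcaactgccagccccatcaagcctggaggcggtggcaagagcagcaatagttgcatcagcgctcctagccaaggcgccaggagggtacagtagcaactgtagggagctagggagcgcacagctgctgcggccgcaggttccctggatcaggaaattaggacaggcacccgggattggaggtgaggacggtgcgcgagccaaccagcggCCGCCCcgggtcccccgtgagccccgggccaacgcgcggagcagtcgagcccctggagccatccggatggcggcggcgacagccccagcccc

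The Cd36 window held the GC box at -109 and -93 and the receptor element at -228 (leftmost base, with the start counted as 0), Lmf1 the GC box at -108 and -2, and Vldlr the GC box at -42. A second Vldlr window, chr19:27216234-27216533, held none of the 4 motifs. Of 32851 promoter windows of the same length, 35.7% held GGGCGG, 16.3% AGGTCA, 7.15% CACGTG and 13.6% TATAAA. The matches are a description of these windows.

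Lpl mRNA in KO lungs was at 48.6% of its WT level by the fitted fold change. The gene lies at chr8:68880491-68907448 on the plus strand (ENSMUSG00000015568, GENCODE release M21, GRCm38). It had 26869, 25570 and 21983 counts in WT1 to WT3 and 11219, 10879 and 10326 counts in KO1 to KO3. These corresponded to 367, 364 and 367 CPM in WT and 178, 175 and 177 CPM in KO. The libraries of a genotype lay close together and the genotypes did not overlap. The mean was 366 ± 1.45 CPM in WT (SD, n = 3) and 177 ± 1.56 CPM in KO (SD, n = 2), and the log2 fold change of KO over WT was -1.04 (SE 0.05). The SD of the WT libraries was below the 2.33 CPM that counting alone would give. In WT lungs Lpl ranked 300 in abundance among all tested genes by CPM.

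Gpihbp1, which codes for the protein that binds the lipase on capillary endothelial cells, differed the other way. The gene lies at chr15:75596628-75599481 on the plus strand (ENSMUSG00000022579). It had 10742, 9497 and 8639 counts in WT and 12372, 10925 and 10305 counts in KO, or 147, 135 and 144 CPM against 197, 176 and 177 CPM. Every KO library was above every WT library. The mean was 142 ± 5.97 CPM in WT (SD, n = 3) and 187 ± 14.4 CPM in KO (SD, n = 2). The log2 fold change was 0.40 (SE 0.07). Without KO1, the highest library, it was 0.31.

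Lmf1 codes for an endoplasmic reticulum protein needed for the lipase to fold. It lies at chr17:25579085-25662826 on the plus strand (ENSMUSG00000002279). It had 1430, 1305 and 1242 counts in WT and 1356, 1225 and 1172 counts in KO, or 19.5, 18.6 and 20.7 CPM against 21.6, 19.8 and 20.1 CPM. The genotypes overlapped, with means of 19.6 ± 1.06 CPM (SD, n = 3) and 20.7 ± 1.16 CPM (SD, n = 2) and a log2 fold change of 0.08 (SE 0.08). With an offset for gene length it was 0.34.

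Angptl4, a secreted inhibitor of the lipase that is induced by fasting and hypoxia, lies at chr17:33773750-33781830 on the minus strand (ENSMUSG00000002289). It had 3056, 2924 and 4538 counts in WT and 2360, 1707 and 1473 counts in KO. The levels were 41.8, 41.7 and 75.7 CPM in WT and 37.5, 27.5 and 25.2 CPM in KO. All KO libraries were below all WT libraries, and in each genotype the library with squamous transcripts was the highest. The mean was 53.0 ± 19.6 CPM in WT (SD, n = 3) and 32.0 ± 7.88 CPM in KO (SD, n = 2), with a log2 fold change of -0.73 (SE 0.33). The estimate was -0.38 without WT3 and -1.01 without KO1.

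**Figure D1:**
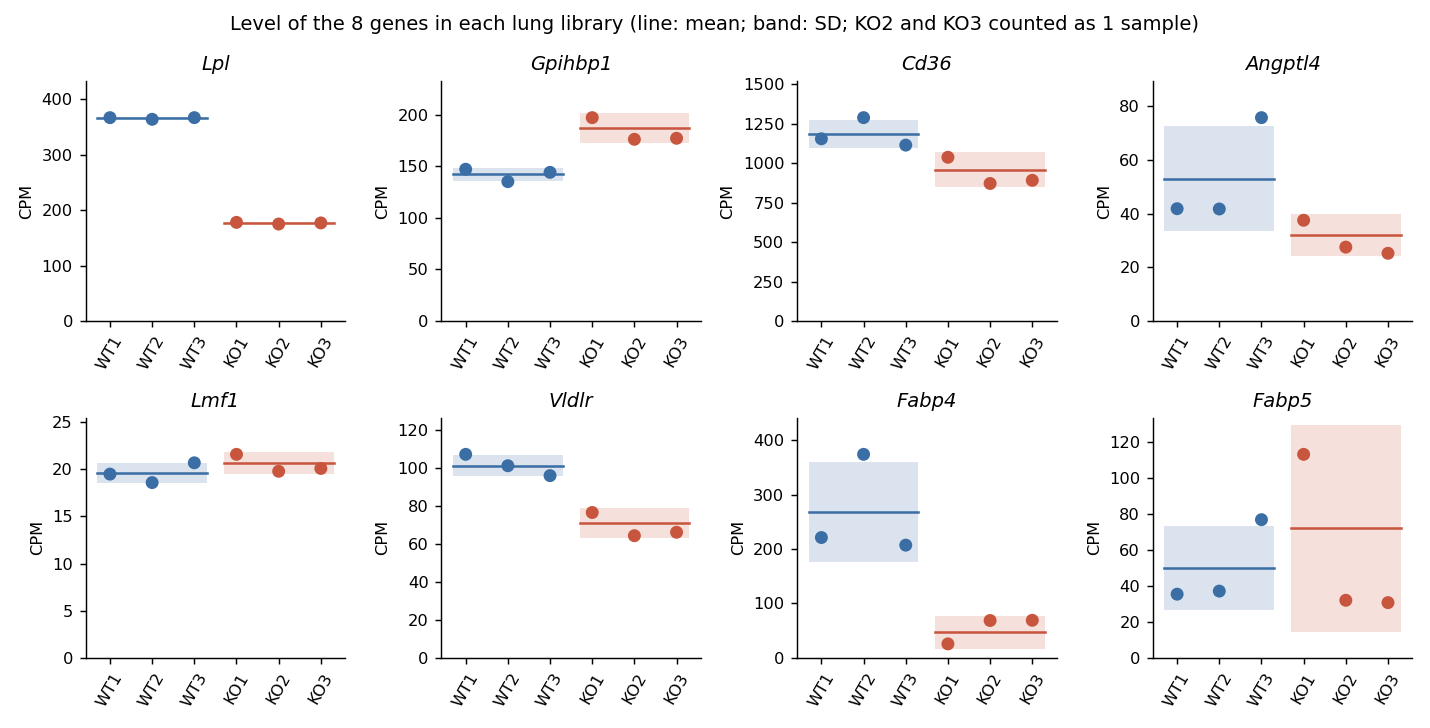
Level of each of the 8 genes in each library in CPM, with 1 panel per gene. Points are libraries, with WT1 to WT3 and KO1 to KO3 along the x axis, lines the mean and bands the SD of a genotype. Lpl stood at 364 to 367 CPM in WT and 175 to 178 CPM in KO, whereas Fabp5 was highest in WT3 and KO1.

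Of the receptors, Vldlr binds triglyceride-rich lipoproteins through their apolipoprotein E. It lies at chr19:27216484-27254231 on the plus strand (ENSMUSG00000024924). It had 7834, 7093 and 5740 counts in WT and 4805, 3980 and 3855 counts in KO, or 107, 101 and 95.8 CPM against 76.4, 64.2 and 66.0 CPM. Every KO library was below every WT library. The mean was 101 ± 5.64 CPM in WT (SD, n = 3) and 70.8 ± 7.98 CPM in KO (SD, n = 2). Its log2 fold change was -0.51 (SE 0.09).

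Cd36, which codes for a scavenger receptor that takes up long-chain fatty acids and oxidised lipoproteins, was among the most abundant transcripts of the lung and ranked 44 in WT. It lies at chr5:17781690-17888801 on the minus strand (ENSMUSG00000002944). It had 84492, 90371 and 66778 counts in WT and 65249, 54037 and 51977 counts in KO. The levels were 1154, 1288 and 1114 CPM in WT and 1037, 871 and 891 CPM in KO. The genotypes did not overlap, but KO1 lay closer to WT3 than to the other KO libraries. The mean was 1185 ± 91.0 CPM in WT (SD, n = 3) and 959 ± 111 CPM in KO (SD, n = 2). The log2 fold change was -0.30 (SE 0.10), and it was -0.47 when WT3 and KO1 were both left out.

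The fatty acid-binding proteins included the largest fold change of the 8 genes, that of Fabp4, and the largest SE, that of Fabp5. Fabp4, the form of adipocytes, capillary endothelium and macrophages, lies at chr3:10204088-10208576 on the minus strand (ENSMUSG00000062515). It had 16199, 26235 and 12429 counts in WT and 1599, 4241 and 4018 counts in KO. The levels were 221, 374 and 207 CPM in WT and 25.4, 68.4 and 68.8 CPM in KO. All KO libraries were below all WT libraries, and KO1 was lower again than the other KO libraries. The mean was 268 ± 92.4 CPM in WT (SD, n = 3) and 47.0 ± 30.5 CPM in KO (SD, n = 2). The fitted log2 fold change was -2.50 (SE 0.54), which puts KO at 17.7% of WT. Of the 8 genes, the study listed Fabp4 alone as changed in these libraries. The study also set a minimum size of fold change for its list, which the estimates here of the other genes did not reach.

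Fabp5, the epidermal form, which is also made by macrophages and endothelium, lies 187 kb away on the same chromosome, at chr3:10012548-10016607 on the plus strand (ENSMUSG00000027533). It had 2587, 2597 and 4595 counts in WT and 7076, 1981 and 1788 counts in KO, or 35.3, 37.0 and 76.7 CPM against 113, 31.9 and 30.6 CPM. The 2 high libraries were WT3 and KO1, the same 2 that held squamous transcripts, and the genotypes overlapped. The mean was 49.7 ± 23.4 CPM in WT (SD, n = 3) and 71.9 ± 57.4 CPM in KO (SD, n = 2). The log2 fold change was 0.53 (SE 0.62), but -0.67 without KO1 and -0.21 when WT3 and KO1 were both left out. Squamous markers were low in the other 4 libraries, where Fabp5 stood at 35.3 and 37.0 CPM in WT and 31.9 and 30.6 CPM in KO. The part of squamous cells in the Fabp5 values was not tested.

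**Figure D2:**
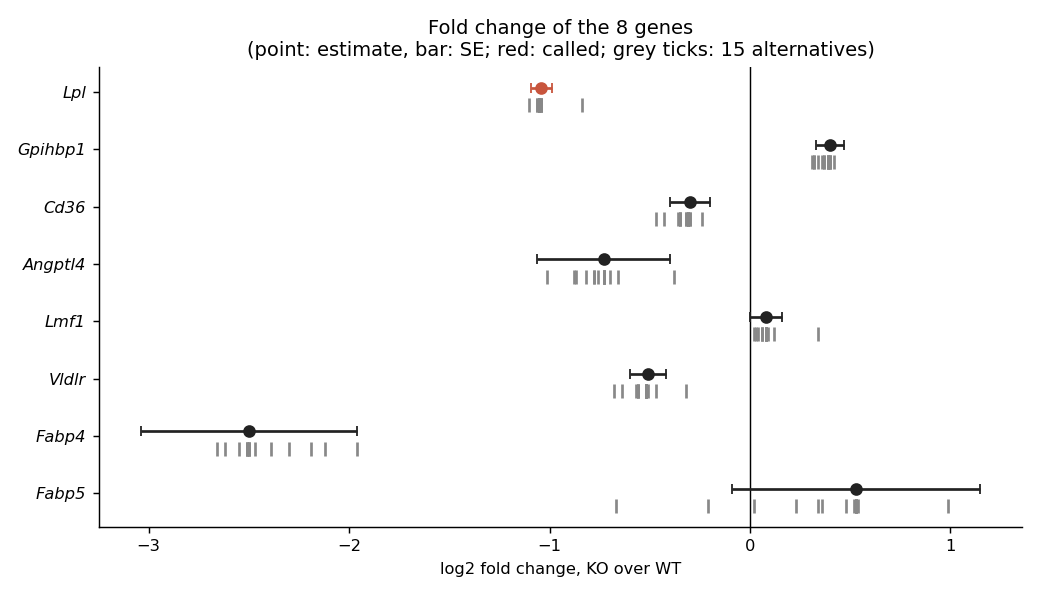
Log2 fold change of KO over WT of the 8 genes on the x axis, with the estimate as a point and its SE as a bar. Red marks the gene called and grey ticks are the estimates under 15 alternatives. The ticks of Fabp5 lie on both sides of 0, and those of the other 7 genes stay on 1 side.

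Of the 8 genes, Lpl was called lower at an adjusted p of at most 0.05 in edgeR's quasi-likelihood test across all genes, and the other 7 were not called. Over all 18660 genes tested, 2.28% were called, 0.906% lower and 1.38% higher. Every KO library was below every WT library for 5 of the 8 genes (Lpl, Cd36, Angptl4, Vldlr and Fabp4), against 20.7% of all tested genes, and above for 1 (Gpihbp1), against 20.1%. The median log2 fold change was -0.41 over the 8 genes and 0.02 over all tested genes. Because these genes were chosen by this contrast, nothing is read from these counts. Without WT1, WT2 or WT3, 0 genes of the whole table were called (3346 to 4193 had an unadjusted p of at most 0.05). With an offset for gene length 0 genes were called as well (3627 unadjusted), and the estimate for Lpl was -0.84. DESeq2 called 3919 genes, 21% of those tested, among them Lpl, Gpihbp1, Cd36, Vldlr and Fabp4. From these calls too nothing is read about the 8 genes.

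Compared per kilobase of the principal transcript, the order of the levels differed between the genotypes. In WT it was Cd36 (349 CPM per kb), Fabp4 (299), Gpihbp1 (172), Lpl (89.0), Fabp5 (50.3), Angptl4 (16.0), Vldlr (12.7) and Lmf1 (10.6). The library ranges overlapped between Cd36 and Fabp4 and between Angptl4 and Vldlr. In KO it was Cd36 (282 CPM per kb), Gpihbp1 (226), Fabp5 (72.8), Fabp4 (52.5), Lpl (43.1), Lmf1 (11.2), Angptl4 (9.66) and Vldlr (8.88). There the ranges of Fabp5, Fabp4 and Lpl overlapped, and that of Angptl4 overlapped with those of Lmf1 and Vldlr. Fabp4 thus stood above Gpihbp1 and Lpl in every WT library and below Gpihbp1 in every KO library.

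Ratios of counts within a library do not depend on how libraries are scaled. The ratio of the lipase to its anchor, Lpl to Gpihbp1, was 2.5, 2.69 and 2.54 in WT and 0.907, 0.996 and 1 in KO. Lpl to Lmf1 was 18.8, 19.6 and 17.7 in WT and 8.27, 8.88 and 8.81 in KO. Both ratios were lower in every KO library. Lpl to its inhibitor Angptl4 was 8.79, 8.74 and 4.84 in WT and 4.75, 6.37 and 7.01 in KO, and there the genotypes overlapped through WT3. Cd36 to Lpl was the one ratio of the 8 computed that was higher in KO, at 5.82, 4.97 and 5.03 against 3.14, 3.53 and 3.04 in WT. Fabp4 to Fabp5 was 6.26, 10.1 and 2.7 in WT and 0.226, 2.14 and 2.25 in KO, so that in KO1 alone Fabp5 had the higher count.

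**Figure D3:**
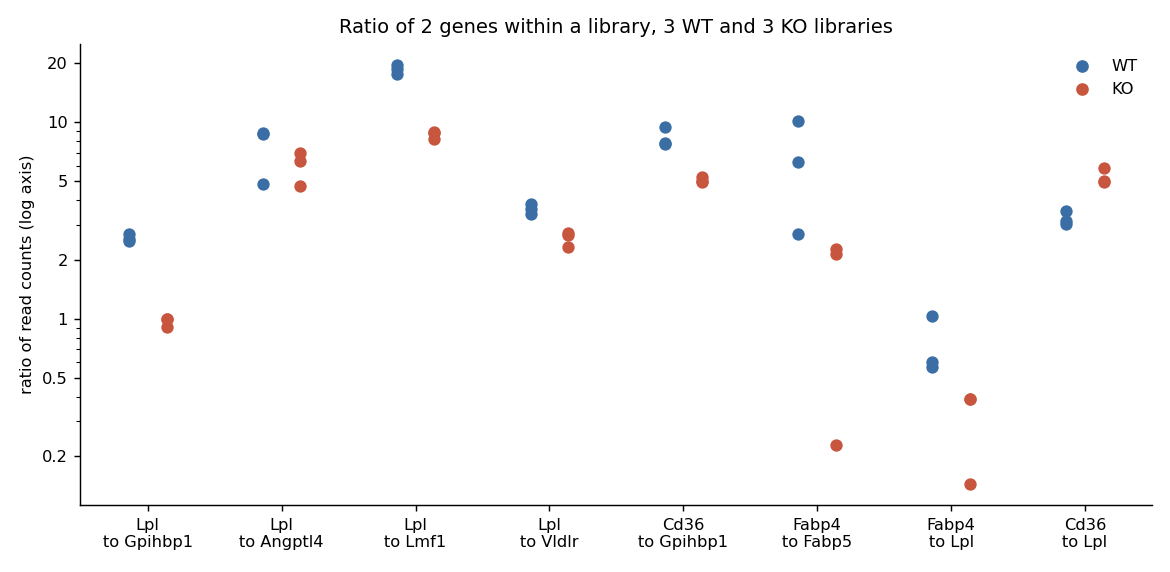
Ratio of the read counts of 2 genes within each library (log axis) for 8 pairs, with blue points for WT and red points for KO libraries. Lpl to Gpihbp1 was 2.5 to 2.69 in WT and 0.907 to 1 in KO, and Lpl to Angptl4 overlapped.

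The 8 genes fell into different patterns over the 5 samples. By the root mean square distance of centred log2 profiles, Cd36 and Vldlr were the closest pair (0.13), Gpihbp1 and Lmf1 followed (0.16), and Fabp4 and Fabp5 were the farthest (1.88). Among 15172 genes with a mean of at least 1 CPM, the profiles nearest to Lpl included those of Meox1 (0.073) and Abca6 (0.087). Nearest to Fabp4 were Adipoq (0.154), A530016L24Rik (0.195) and Ctcflos (0.264). Those nearest to Cd36 were Abca8a (0.024), Tspan12 (0.027) and Apba2 (0.027), and to Gpihbp1 Ankrd37 (0.011), Dapk3 (0.016) and Eid2 (0.018). With 5 samples many genes share such a profile, and the distances are a description.

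Because these are bulk lungs, fewer cells of a type and less RNA per cell cannot be told apart. The lung label was checked against markers of alveolar type 2 cells, the cells that make surfactant, which summed to 21943 to 23038 CPM in WT and 31266 to 33053 CPM in KO. Of these 10 genes 4 were called, all higher against 1.38% of all tested genes (Sftpc, Sftpb, Sftpa1 and Sftpd). Markers of adipocytes and cardiomyocytes, which both make Lpl, were present too. All 15 adipocyte markers were lower in every KO library than in every WT library (20.7% of all tested genes) and 5 were called lower (0.906% of all tested genes). The study listed 9 of the 15 as changed in these same libraries, 3 of the 5 called among them, so they are not independent evidence of the direction. Their sum was 1500, 2018 and 1484 CPM in WT and 570, 588 and 600 CPM in KO, with Car3 the most abundant. Adiponectin (Adipoq) itself was at 73.4, 99.2 and 69.4 CPM in WT and at 6.28, 17.8 and 21.7 CPM in KO, lowest in KO1 as was Fabp4. The 6 brown adipocyte markers summed to 155, 261 and 72.4 CPM in WT and to 44.4, 25.7 and 24.7 CPM in KO, with Ucp1, which the study also listed, the most abundant. The 13 cardiomyocyte markers summed to 8257, 3643 and 3430 CPM in WT and to 2221, 1506 and 1520 CPM in KO, with Myh6 the most abundant. In every KO library 11 of them were lower (20.7% of all tested genes), and the study listed 1 of the 13, Ryr2, as changed in these same libraries. Of the cardiomyocyte list edgeR called 0 genes and DESeq2 6 (9 had an unadjusted edgeR p of at most 0.05). Of the brown adipocyte list edgeR called 0 and DESeq2 5 (5 unadjusted). Over all 18660 tested genes DESeq2 called 21%, and 5092 had an unadjusted edgeR p of at most 0.05. No gene of these 3 lists was at 0 in all libraries of a genotype. Among the WT libraries the cardiomyocyte sum ranged from 3430 to 8257 CPM, the adipocyte sum from 1484 to 2018 CPM and Lpl from 364 to 367 CPM. The part of these cells in the lower Lpl, Fabp4 and Cd36 values was not tested.

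Endothelial cells are where Gpihbp1 is made and Cd36 and Fabp4 are abundant. The 14 endothelial markers summed to 7102, 6957 and 7161 CPM in WT and 7747, 6669 and 6648 CPM in KO, with Ptprb the most abundant. Of these, 6 were above (20.1% of all tested genes) and 4 below (20.7%) all WT libraries in every KO library. Of the 14, edgeR called 0, and DESeq2 called 9 against 21% of all tested genes. An unadjusted edgeR p of at most 0.05 was reached by 9, against 5092 of all 18660 tested genes. Macrophage markers, led by Lyz2, summed to 4589, 5064 and 5443 CPM in WT and to 6120, 5739 and 5730 CPM in KO. Lyz2, which alveolar type 2 cells make too, gave most of this sum (4208 to 4943 CPM in WT and 5361 to 5732 CPM in KO). Of the 10 macrophage markers tested 8 had a negative log2 fold change (median -0.18), 3 were below and 1 above all WT libraries in every KO library (20.7% and 20.1% of all tested genes), and 1 was called (Mrc1, lower, against 0.906%). Fibroblast markers, led by Inmt, summed to 6129, 5792 and 6511 CPM in WT and to 6449, 5294 and 5293 CPM in KO, and 1 of 10 was called (Dcn, lower, against 0.906%).

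**Figure D4:**
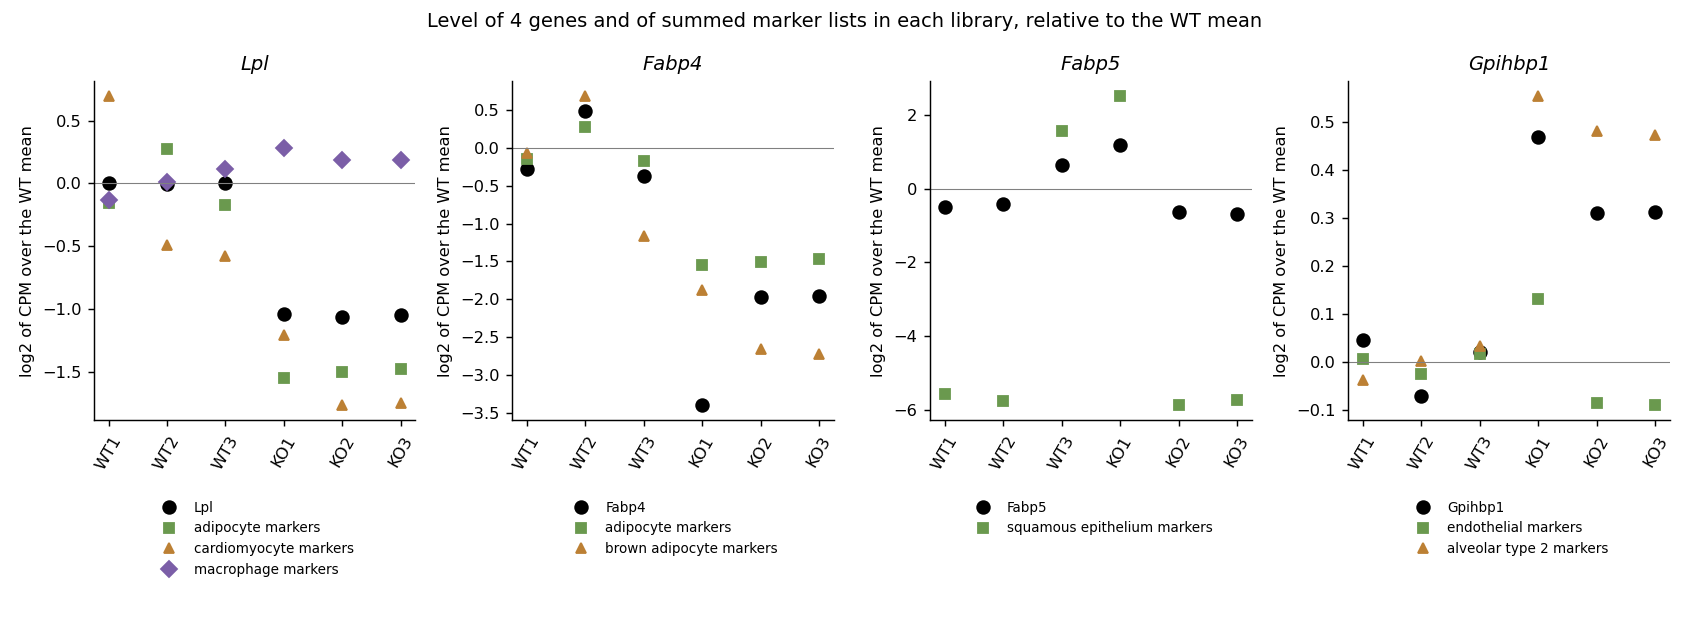
Level of Lpl, Fabp4, Fabp5 and Gpihbp1 (black points) and of summed cell type markers (coloured symbols) in each library, as the log2 of CPM over the WT mean. Fabp5 was high in WT3 and KO1, as were the squamous markers. Lpl and the adipocyte and cardiomyocyte sums were lower in every KO library, and the part of these cells in Lpl was not tested.

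Other genes of the pathway were taken from 3 lists. Of 22 genes of lipoprotein lipase control and lipoprotein handling, 19 were tested (all but Apoa4, Apoa5 and Apoc3) and 1 was called, higher (1.38% of all tested genes). This was Sdc1, a heparan sulfate proteoglycan that binds lipoproteins, at 191, 201 and 209 CPM in WT and 267, 258 and 257 CPM in KO. Its log2 fold change was 0.39 (SE 0.06, adjusted p = 0.0487 in edgeR), and its adjusted p ranged from 1.2e-08 to 0.194 over 15 alternatives, of which it passed 7. The most abundant genes of the list were not called by edgeR. These were the clearance receptor Lrp1 (log2 fold change -0.33, SE 0.10, adjusted p = 0.119), the apolipoprotein Apoe (-0.09, SE 0.08, adjusted p = 0.508) and the basement membrane proteoglycan Hspg2 (-0.49, SE 0.08, adjusted p = 0.0528). DESeq2 called Hspg2 (adjusted p = 4e-07) and Lrp1 (adjusted p = 0.0101), and they passed 6 and 2 of the 15 alternatives. With the offset for gene length their log2 fold changes were -0.23 and -0.03. The median of the list was -0.02. KO2 and KO3 also had more reads of genes of intestine and liver, named here after their values were seen. Apoa4 had 1, 784 and 653 counts in KO1 to KO3 and 0 in every WT library. Apoc3 had 7, 110 and 67 counts in KO and 2 to 4 in WT, and Apob had 59, 331 and 320 counts in KO and 53 to 135 in WT. Fabp2, of the fatty acid list, had 20, 229 and 223 counts in KO and 4 to 8 in WT.

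Of 26 genes of fatty acid uptake and activation, 25 were tested (all but Fabp9) and 1 was called, lower (0.906% of all tested genes). Acsl1, the acyl-CoA synthetase that activates fatty acids in adipocytes, heart and liver, stood at 171, 204 and 164 CPM in WT and 99.9, 104 and 102 CPM in KO (log2 fold change -0.82, SE 0.11, adjusted p = 0.0448 in edgeR, 2.96e-10 to 0.189 over the alternatives). The abundant genes of the list were not called by edgeR. The log2 fold change was -0.04 for caveolin Cav1 (SE 0.07, adjusted p = 0.778), for its partner Ptrf, or cavin, 0.27 (SE 0.06, adjusted p = 0.0706) and for the synthetase Acsl5 0.13 (SE 0.05, adjusted p = 0.207). DESeq2 called Ptrf (adjusted p = 3.06e-05), as did edgeR with the 6 libraries kept separate (adjusted p = 0.0187). The median of the list was -0.04. Fabp3, the heart form of the binding proteins, was named after its values were seen. It stood at 31.4, 21.0 and 23.0 CPM in WT and 11.7, 12.1 and 11.4 CPM in KO and was not called (adjusted p = 0.055).

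All 22 genes of the PPAR receptors and their targets were tested and 3 were called, all lower (0.906% of all tested genes). Ppara codes for the receptor that drives fatty acid oxidation (log2 fold change -1.32, SE 0.17, adjusted p = 0.0446 in edgeR). Aqp7 codes for the glycerol channel of adipocytes (-3.22, SE 0.26, adjusted p = 0.0446), and Lpin1 for a phosphatidate phosphatase of triglyceride synthesis (-0.66, SE 0.08, adjusted p = 0.0446). Over the alternatives their adjusted p ranged from 3.95e-10, 5.29e-27 and 2.54e-09, respectively, to 0.189. Of the list 13 genes were below all WT libraries in every KO library (20.7% of all tested genes) and 1 was above (20.1%), with a median log2 fold change of -0.40. Of the most abundant genes, Ucp2 (0.35, SE 0.15, adjusted p = 0.209) and Hadha (-0.42, SE 0.12, adjusted p = 0.0993) were not called by edgeR. DESeq2 called Hadha (adjusted p = 0.00588) but not Ucp2 (adjusted p = 0.0816), and they passed 3 and 1 of the 15 alternatives. With the offset for gene length the log2 fold change of Hadha was -0.26. Pparg, the adipocyte receptor, named after its values were seen, stood at 18.0, 29.1 and 15.9 CPM in WT and 10.1, 13 and 12.6 CPM in KO (adjusted p = 0.149). The study picked Pdk4 and Cidec from these libraries, so they are not independent evidence of the direction of the list, and Cidec and Aqp7 are also adipocyte markers. None of the 5 calls in the 3 lists was made without WT1, WT2, WT3 or KO1 or with the offset for gene length.

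**Figure D5:**
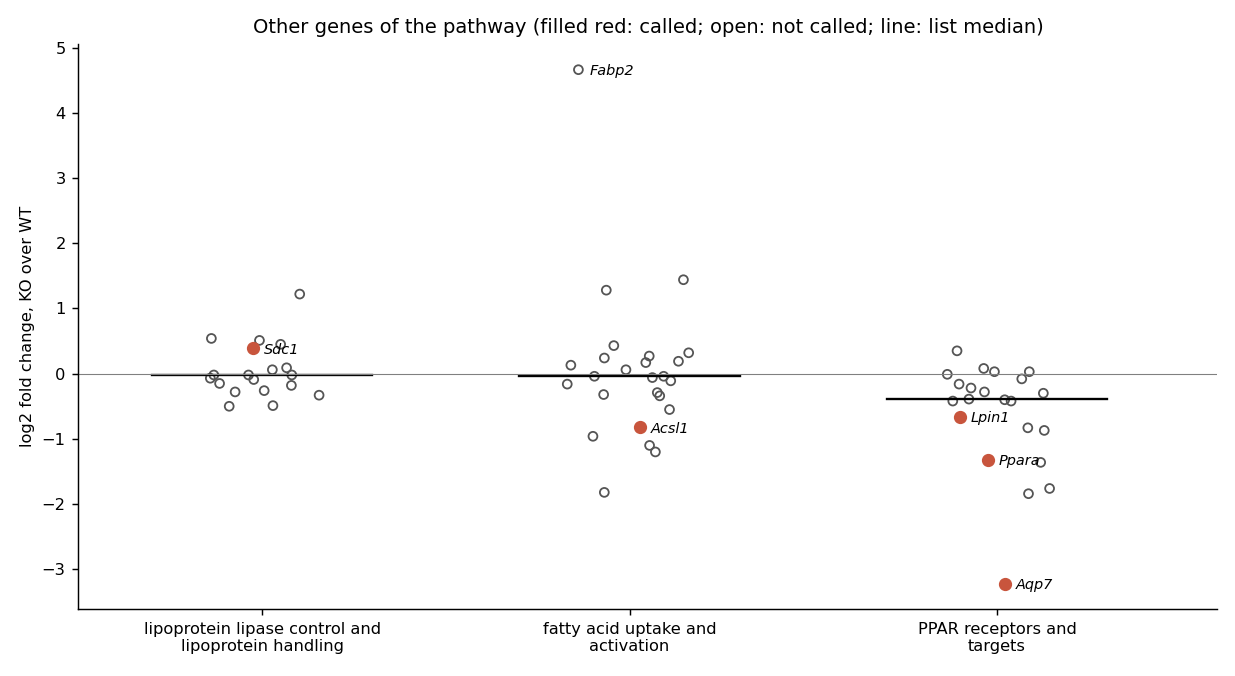
Log2 fold change of KO over WT of the tested genes of the 3 pathway lists, with called genes in red, other genes as open circles and the list median as a line. Sdc1 was called higher, and Acsl1, Ppara, Aqp7 and Lpin1 were called lower.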

How the data were processed

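RNA of 6 lungs, 3 WT and 3 KO, was analysed from the table of raw read counts per gene that the authors deposited, with no normalization. Per the submitters' processing notes, the tools included Trimmomatic 0.36, STAR 2.5.3a, Picard 2.9.0 and HTSeq 0.6.0, with mouse genome build mm10. The annotation release and strand setting were not given in the sources used here. No annotated gene overlaps any of the 8 genes in GENCODE release M21. KO was compared with WT with edgeR 4.0.16 under R 4.3.3 (filterByExpr, TMM factors, two-sided quasi-likelihood test, Benjamini-Hochberg adjustment over all 18660 genes tested, calls at an adjusted p of at most 0.05). Counts of KO2 and KO3 were summed, since their squared differences grew little with the count, from 1.71 to 1.93 times counting noise below 20000 counts to 3.32 above, against 1.86 to 51.6 for WT1 and WT2. The code was tested on simulated data. CPM values use TMM-scaled library sizes, and CPM per kb the principal transcript. Counting error is the only error that depth describes, since duplicate reads are not independent molecules. Profiles were compared as log2(CPM + 0.5).

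The 8 genes and all lists were chosen with earlier results of these data known. Named were all 8 genes, up to 6 called and the 3 most abundant genes of each pathway list, the 3 nearest profiles of Lpl, Gpihbp1, Cd36 and Fabp4, and the most abundant gene of each marker list. Of these, 2 genes are not reported here. The alternatives were DESeq2 1.42.0, other scalings and filters, KO2 and KO3 kept separate, a replicate block, an offset for gene length and leaving out libraries.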

Additional observations from a re-analysis of the deposited data

How the results depend on the processing

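The numbers of calls depended on the processing and on single libraries, while the directions of the 8 genes other than Fabp5 did not change under the 15 alternatives. The main fit called 426 genes (2.28% of those tested), with 1 of the 8 genes, 1 of the lipoprotein list, 1 of the fatty acid list and 3 of the PPAR list. Keeping the 6 libraries separate gave 3402 (18.9%) with 5, 5, 6 and 10. DESeq2 gave 3919 (21%) with 5, 5, 5 and 12. At least 10 counts in every library gave 937 (5.54%) with 3, 3 and 3 in the first 3 of these sets. The 8 genes were chosen by this contrast, so nothing is read from their counts. Leaving out WT3 and KO1 together gave 2256 with 5, 8, 6 and 14, where the lone KO sample was assumed to vary like WT. The offset for gene length gave 0 throughout (unadjusted 3627 of 18524 genes, 7 of the 8, and 4, 9 and 12 of the lists). In the main fit 5092 of 18660 genes and 5 of the 8 had an unadjusted edgeR p of at most 0.05. Without a filter the lipoprotein list had 0 calls (8 unadjusted). Leaving out 1 library gave 0 to 418 genes, 0 to 1 of the 8, 0 to 1 of each of the first 2 lists and 0 to 3 of the PPAR list. The lowest values came without any 1 WT library, when 4 to 5 of the 8 genes, 4 of the lipoprotein list, 6 to 8 of the fatty acid list and 10 to 15 of the PPAR list had an unadjusted p of at most 0.05, and 17 genes were called without KO1, where again the lone KO sample was assumed to vary like WT. The 3 lists also had 0 calls without KO1 (11, 11 and 12 unadjusted), and the lipoprotein list without KO2 (5 unadjusted). Of all calls 60.3% were higher, against 38.2% of 306 with library size alone. The cause of these differences was not tested.

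Same-numbered WT and KO libraries did not all deviate together (correlations of -0.66, 0.75 and -0.82), so the numbers do not pair the samples. A replicate block with the libraries kept separate gave 1157 genes (6.42% of those tested), 4 of the 8, 3 of the lipoprotein list and 3 of the fatty acid list.

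The log2 fold change of Lpl was -1.10 with library size alone, -1.06 without WT3 and KO1, -0.84 with the length offset and -1.06 to -1.04 when 1 library was left out. That of Gpihbp1 was 0.31 to 0.42 and that of Fabp5 -0.67 to 0.99 when 1 library was left out. Cd36 had -0.47 without WT3 and KO1, and Lmf1 0.34 with the length offset. Vldlr had -0.68 without WT3 and KO1, -0.32 with the length offset and -0.64 to -0.47 when 1 library was left out. Of 210 values of the named list genes 165 kept their direction and side of the threshold, 16 passed it, 28 lost it and 1 changed sign. This was Cav1, not called in any of these fits, at -0.04 against 0.01 without WT2 (-0.07 to 0.01 when 1 library was left out).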
